A study of Mus musculus with 14 samples.

Results

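The 32 genes described here make cholesterol and fatty acids or control and move their products: 18 enzymes of the mevalonate and sterol pathway, 3 regulators, the sterol carrier Stard4, 8 enzymes of fatty acid synthesis and desaturation, and the sterol exporters Abca1 and Abcg1. They were chosen by gene symbol from the 50686 genes of the deposited count tables and not by a cut on any measured value. Earlier results of these data were known when they were chosen. All 32 passed the filter on low counts, so none was lost before testing.

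The genes were measured by RNA sequencing in 14 libraries of HPC-LSK cells, mouse blood progenitor lines of C57BL/6N background that are kept in culture. There were 4 libraries of Cdk6 wild-type (WT) untransformed cells, 3 of Cdk6 knockout (KO) untransformed cells, 3 of WT cells transformed with the BCR-ABL p210 oncogene and 4 of KO p210 cells. The medium of untransformed cells held IL-6 at 12.5 ng/ml with 2% SCF. By the protocol p210 cells grew without these cytokines, but the name SCF appears in the p210 descriptions and is not explained there. Transformation thus came with a change of medium, and their effects cannot be told apart. The labels do not say whether replicates were separate cultures or derivations, and a p-value here reflects only how these samples spread.

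Cells build cholesterol from acetyl-CoA through mevalonate, the isoprenoids and squalene, and they build fatty acids from the same acetyl-CoA through malonyl-CoA. When sterol in the endoplasmic reticulum is low, the SREBP factors encoded by Srebf1 and Srebf2 are carried to the Golgi, cleaved and sent to the nucleus, where they raise the transcription of both pathways, while Insig1 holds them back when sterol is plentiful. The LXR nuclear receptors answer to oxysterols and raise Abca1 and Abcg1, which export cholesterol, and dividing blood progenitors draw on both pathways for new membrane.

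The promoters of 24 of the 32 genes were found in a RefSeq table (build GRCm38.p6) as 29 windows of 300 bases, each with 250 bases before and 50 after a transcription start. Letters were searched on both strands. The SREBP element TCACNCCAC was present in 1 of 29 windows, that of Hmgcs1, which is 3.4% against 1.24% of the 32851 windows of all genes. The palindromic E-box TCACGTGA, which SREBP1 can also bind, was in 0 windows (0.974% of all windows). The CCAAT box, bound by the SREBP partner NF-Y, was in 20 windows (69.0%, against 37.4% of all windows), and the GC box GGGCGG, bound by Sp1, in 22 (75.9%, against 35.7%). The strict LXR element, a direct repeat of AGGTCA with 4 bases between, was in 0 windows (0.0152% of all windows). No overlap with another motif was required or barred, and a match of letters is not a measured binding site. The 150 bases before the start are given for 5 of these genes, as examples from 13 windows found to hold no annotated exon. The 5 shown all hold a CCAAT box, while the windows of Acly, Acaca and Abca1 among the 13 hold none in these bases. Capitals mark the SREBP element in Hmgcs1 and the CCAAT boxes, written ATTGG where they lie on the other strand.
Hmgcs1: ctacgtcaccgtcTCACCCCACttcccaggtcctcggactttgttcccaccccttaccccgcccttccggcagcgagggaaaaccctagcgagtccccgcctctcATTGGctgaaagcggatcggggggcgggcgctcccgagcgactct
Mvk: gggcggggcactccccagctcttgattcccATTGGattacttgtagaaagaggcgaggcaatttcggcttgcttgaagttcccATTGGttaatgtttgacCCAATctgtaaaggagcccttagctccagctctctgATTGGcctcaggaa
Mvd: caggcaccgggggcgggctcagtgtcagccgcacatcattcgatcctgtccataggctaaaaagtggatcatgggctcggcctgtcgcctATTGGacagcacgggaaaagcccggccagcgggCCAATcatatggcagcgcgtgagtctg
Ebp: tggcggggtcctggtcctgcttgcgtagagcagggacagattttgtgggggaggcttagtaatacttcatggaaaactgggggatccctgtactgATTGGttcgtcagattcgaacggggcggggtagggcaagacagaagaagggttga
Fasn: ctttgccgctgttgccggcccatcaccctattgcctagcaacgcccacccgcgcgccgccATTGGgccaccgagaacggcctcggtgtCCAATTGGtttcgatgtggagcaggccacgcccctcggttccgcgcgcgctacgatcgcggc
The Hmgcs1 window is chr13:119690201-119690350 (plus strand), and its SREBP element covers bases -137 to -129 from the start. The Mvk window is chr5:114444119-114444268 (plus strand) and that of Mvd is chr8:122443423-122443572 (minus strand). The Ebp window is chrX:8193513-8193662 (minus strand) and that of Fasn is chr11:120824548-120824697 (minus strand), where a pair of CCAAT boxes on opposite strands share their middle letters.

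Total counts ran from 20270348 to 50303271 per library. Cdk6, the kinase removed in the knockout, stood between 970.2 and 1305 CPM (counts scaled to the same TMM-adjusted library size) in WT untransformed, 236 and 271 CPM in KO untransformed and 576 and 606 CPM in WT p210 libraries. In the KO p210 group it stood at 326, 578, 245 and 163 CPM, so the library labelled KO p210 replicate 2 was level with WT p210 and goes against its label. Between KO and WT p210 libraries Cdk6 itself was not called (log2 fold change -0.86 ± 0.31, SE, adjusted p = 0.147, edgeR). Without that library it was called lower in KO (-1.28, adjusted p = 0.0143). The descriptions also carry 1 of 2 codes of unstated meaning, here called the first code (replicates 1 and 2 of each group) and the second code (replicates 3 and 4). The progenitor markers Kit and Cd34 were detected in every group, at mean levels of 31.4 to 431 CPM and 596 to 968 CPM. Other progenitor markers were close to absent in KO p210 libraries, where Flt3, Mecom and Hlf had means of 0.427, 0.223 and 0.19 CPM. Slamf1 was lower still, while Cd48 and Ly6a stood at means of 232 and 10.9 CPM in that group. The hepatocyte markers Alb and Ttr had no counts in any library.

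Per unit of gene length, the most abundant members made or modified fatty acids. In WT untransformed libraries Scd2, a stearoyl-CoA desaturase, stood at 813 ± 237 TPM (counts per length, scaled within a library, SD, n = 4). Fads2, the delta-6 desaturase, followed at 608 ± 46.2 TPM, then Acly, which makes cytosolic acetyl-CoA from citrate, at 451 ± 55.9 TPM, and Srebf2, the main regulator of the sterol branch, at 446 ± 26.4 TPM. Acly and Srebf2 did not differ in level beyond their spread. Among the sterol enzymes, Hmgcs1, which makes HMG-CoA, and Cyp51, the lanosterol demethylase, were highest at 240.2 ± 80.0 and 239 ± 64.3 TPM. Lowest were Idi1, the isopentenyl diphosphate isomerase, at 6.56 ± 0.667 TPM and the farnesyl diphosphate synthase Fdps at 17.6 ± 4.90 TPM. Abca1 stood at 6.85 ± 2.50 TPM, level with Idi1 within their spread.

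The sterol enzymes varied between libraries of the same group more than most genes, and they did so together. Their median SD of log2 CPM within a group was 0.39 in WT untransformed, 0.24 in KO untransformed, 0.68 in WT p210 and 0.55 in KO p210 libraries, against 0.16, 0.12, 0.21 and 0.20 over all 14512 genes tested. In WT p210 replicate 3, 17 of the 18 enzymes were at the lowest level of their group, against 37.8% of all genes, and in KO p210 replicate 4 it was again 17 of 18, against 25.7% of all genes. The exceptions were Ebp in WT p210 and Tm7sf2, a sterol reductase, in KO p210 libraries. Averaged over the 18 genes, WT p210 replicate 3 lay at -0.90 and KO p210 replicate 4 at -0.95 on the log2 scale relative to each gene's mean over 14 libraries. All 8 fatty acid enzymes were also lowest in WT p210 replicate 3, and 7 of 8 in KO p210 replicate 4, Scd1 being the exception. WT untransformed replicate 1 was the highest of its group for 16 of 18 sterol enzymes, against 30.3% of all genes. KO untransformed replicate 1 was the highest of its group for 18 of 18 sterol enzymes and replicate 3 the lowest for 18 of 18, against 28.3% and 36.2% of all genes.

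**Figure D1:**
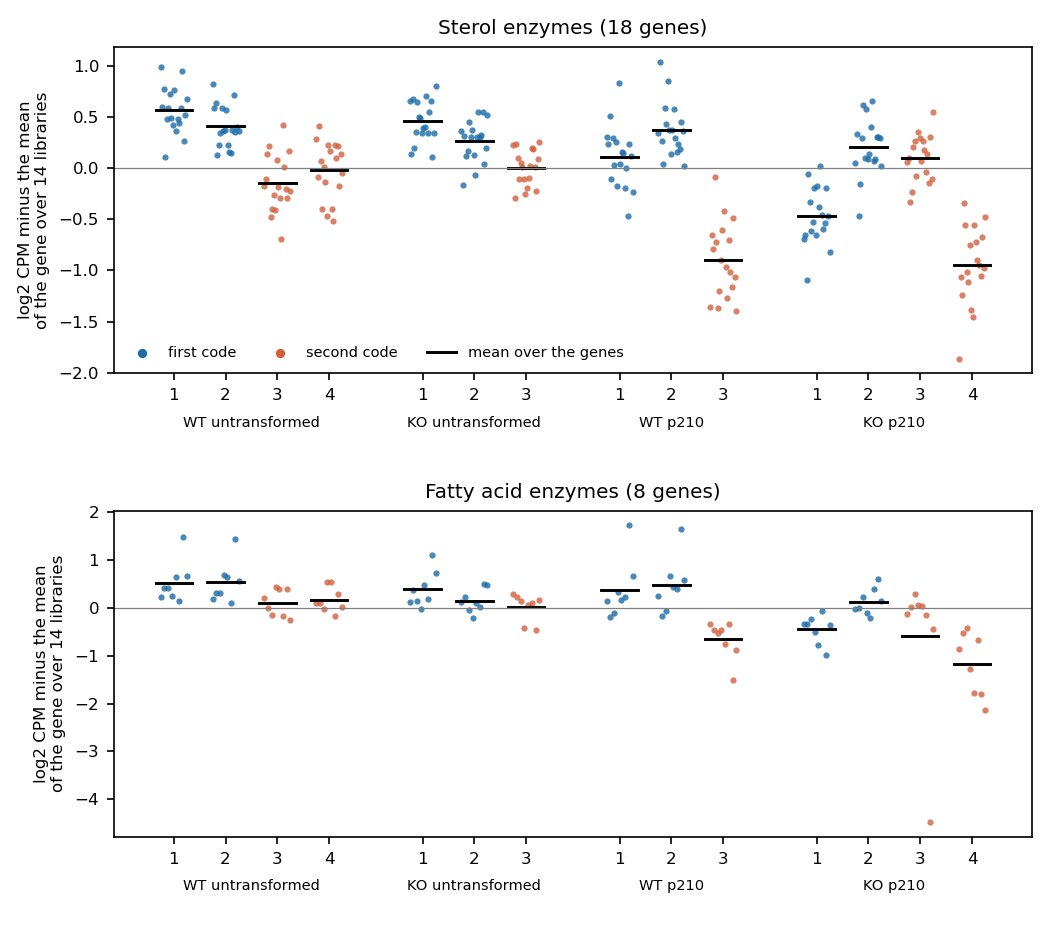
Each point is 1 gene in 1 library, as log2 CPM minus that gene's mean over the 14 libraries, for the 18 sterol enzymes (top) and the 8 fatty acid enzymes (bottom), with numbers on the x axis for the replicates and colours for the code in the description. Black bars are means over the genes, and the bars of WT p210 replicate 3 and KO p210 replicate 4 are the lowest of the top panel, at -0.90 and -0.95.

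Hmgcs1 showed this pattern in counts. It stood at 282, 257, 143 and 156 CPM in WT untransformed and 242, 211 and 172 CPM in KO untransformed libraries, in order of replicate. In p210 libraries it stood at 204, 309 and 74.7 CPM in WT and 119, 183, 162 and 78.9 CPM in KO. The ranges of the 4 groups overlapped, and the lowest libraries were WT p210 replicate 3 and KO p210 replicate 4. Scd1, the other abundant stearoyl-CoA desaturase, spread more widely, with 254, 242 and 27.1 CPM in WT p210 and 38.9, 116, 3.43 and 22.0 CPM in KO p210 libraries. The highest over the lowest value was 9.35 in WT p210 and 33.7 in KO p210, and the lowest level, in KO p210 replicate 3, fell in a library where the 18 sterol enzymes lay at 0.10 above their means on average.

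The code in the sample description followed the level of these genes in 3 of the 4 groups. Every second-code library lay below every first-code library for 16 of 18 sterol enzymes in WT untransformed cells (29.6% of all genes), 18 of 18 in KO untransformed cells (36.2%) and 17 of 18 in WT p210 cells (37.8%). In KO p210 cells it was 1 of 18 (20.4%). There replicate 1 of the first code was low, with 17 of 18 enzymes below their own means, and replicate 3 of the second code was not, with 6 of 18. For the fatty acid enzymes the counts were 6, 5, 8 and 3 of 8 in the same order. KO untransformed and WT p210 hold 1 second-code library each, so there the difference rests on that library.

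Mvd, the mevalonate diphosphate decarboxylase, gave the smallest p of the members between the codes. It stood at 53.0, 42.4, 23.6 and 26.5 CPM in WT untransformed, 62.0, 55.4 and 38.6 CPM in KO untransformed, 41.9, 46.5 and 15.8 CPM in WT p210 and 38.6, 59.8, 42.9 and 23.0 CPM in KO p210 libraries. The second code was below the first without overlap in every group except KO p210. In a fit with group and code as terms, added after the library values were seen, its log2 difference of second against first code was -0.86 ± 0.18 (SE, adjusted p = 0.145, edgeR). In that fit 0 of 32 members passed the adjusted threshold in edgeR, where 0.0758% of all genes did. At an unadjusted p under 0.05 there were 18 of 32, all lower in the second code, against 11.9% of all genes. DESeq2 called 9 of 32, all lower (Fasn, Fdft1, Hmgcs1, Hsd17b7, Mvd, Pmvk, Scd1, Scd2 and Srebf1), against 2.67% of all genes, and limma-voom called 0 (0.0620% of all genes) with 20 at an unadjusted p under 0.05 (13.3%). The median log2 difference was -0.56 for the sterol enzymes and -0.31 for the fatty acid enzymes, against 0.00 for all genes.

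These counts depended on the libraries in the fit. With untransformed libraries only, 22 of 32 members had an unadjusted p under 0.05 (17.1% of genes), and with p210 libraries only, 5 of 32 (7.98% of genes), while edgeR called 0 of 32 in each. Some cell type markers differed between the codes by as much as the sterol enzymes, and edgeR called none of them. The neutrophil and monocyte markers had a median log2 difference of -0.59 (2 of 10 above 0), the erythroid markers -0.61 (1 of 5) and the progenitor markers -0.33 (2 of 8). The mast cell and basophil markers lay at 0.78 (5 of 7 above 0), the macrophage markers at 0.39 (4 of 7) and the megakaryocyte markers at 0.38 (4 of 5). The 18 proliferation genes had a median of 0.00, with 9 of 18 above 0. Total counts ran from 20773893 to 49190596 in first-code libraries and from 20270348 to 50303271 in second-code libraries, and mitochondrial genes took 1.48% to 1.90% and 1.74% to 2.13% of counts. The part of any of these in the difference was not tested.

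**Figure D2:**
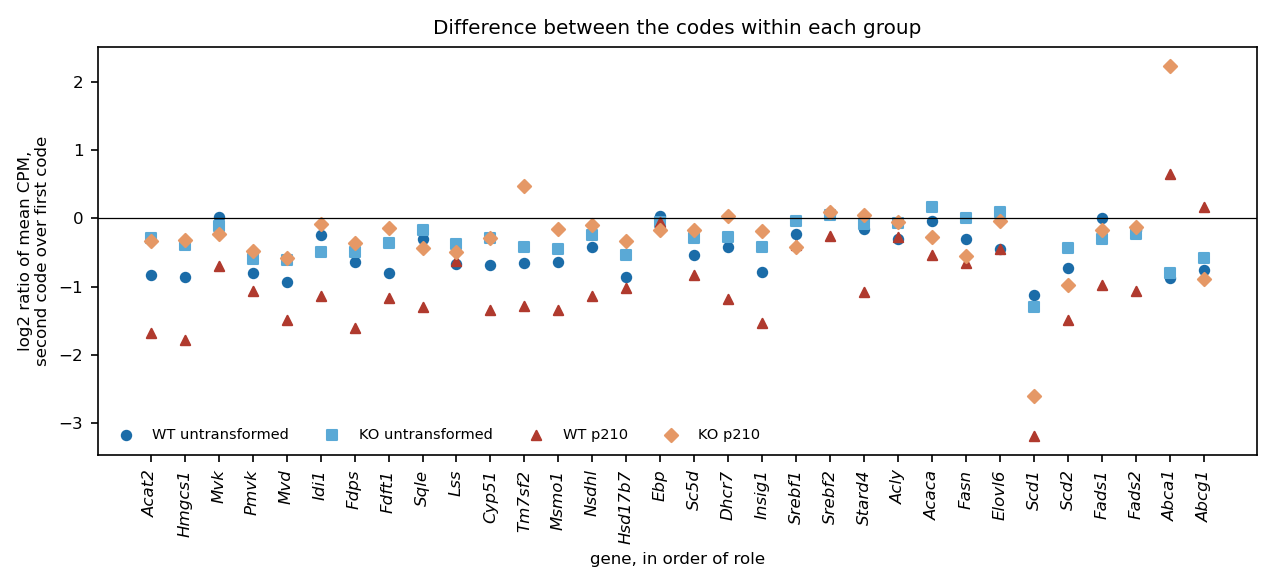
For each of the 32 genes, in order of role on the x axis, the y axis gives the log2 ratio of mean CPM in second-code over first-code libraries within each of the 4 groups (symbols). Most points lie below 0, WT p210 points (triangles) reach lowest for most sterol enzymes, and Abca1 in KO p210 is the high point at the right.

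In WT cells, p210 libraries had more Abcg1 and less Insig1, Srebf2 and Acly than untransformed libraries. These were the 4 of 32 members called by edgeR, a share below that of all genes, of which 39.5% were called. At an unadjusted p under 0.05 there were 7 of 32, against 48.6% of all genes, and the groups did not overlap for 5 of 32, against 45.0%. Fitted log2 fold changes were above 0 for 9 of 32 members, against 51.4% of all genes. No sterol enzyme passed the adjusted threshold, and their median was -0.25, with 4 of 18 above 0, against 0.02 for all genes.

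Insig1 (ENSMUSG00000045294.11, chromosome 5, 28071363 to 28078662, GRCm38, plus strand), the endoplasmic reticulum protein that retains SREBP, stood at 227, 250.3, 119 and 158 CPM in WT untransformed and 99.7, 114 and 37.1 CPM in WT p210 libraries. All 3 p210 libraries were below all 4 untransformed libraries. Its log2 fold change was -1.17 ± 0.42 (SE, adjusted p = 0.0432, edgeR). This call was lost in 10 of 29 other settings, among them the omission of WT p210 replicate 1 or 3, of any of WT untransformed replicates 1, 2 and 4, or of KO untransformed replicate 2, with adjusted p up to 0.128. Srebf2 (ENSMUSG00000022463.7, chromosome 15, 82147266 to 82205376, plus strand) stood at 557, 618, 627 and 596 CPM in untransformed and 409, 456 and 361 CPM in p210 libraries. Again the groups did not overlap. Its log2 fold change was -0.55 ± 0.17 (adjusted p = 0.0197), and the call was lost without WT p210 replicate 3, alone or together with KO p210 replicate 4, and within each code alone. It was also lost with the line (code and letter) as a replicate block, at -0.56 (adjusted p = 0.0709). The 3 line pairs of this comparison each correlated over 0.1, but so did libraries that share no line, so the pairing is not established. With that block Pmvk, the phosphomevalonate kinase, was called (-0.96, adjusted p = 0.0353, against -0.86 ± 0.39 and 0.0968 without it). Srebf1, the factor of the fatty acid branch, stood at 211 ± 20.7 CPM and 219.7 ± 32.6 CPM (SD, n = 4 and n = 3), with a log2 fold change of 0.06 ± 0.15 (adjusted p = 0.791).

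Acly (ENSMUSG00000020917.17, chromosome 11, 100476353 to 100528000, minus strand) was the fatty acid enzyme called in WT cells. It stood at 736, 683, 554 and 594 CPM in untransformed and 482, 494 and 402 CPM in p210 libraries, without overlap. Its log2 fold change was -0.48 ± 0.14 (adjusted p = 0.0189), and it too was not called without WT p210 replicate 3. The carboxylase Acaca, which makes malonyl-CoA, and the synthase Fasn gave -0.14 ± 0.18 and 0.15 ± 0.22 on the log2 scale and were not called. Abcg1 (ENSMUSG00000024030.6, chromosome 17, 31057698 to 31115777, plus strand) stood at 34.0, 35.0, 16.8 and 24.0 CPM in untransformed and 124, 72.3 and 109.8 CPM in p210 libraries. Each p210 library had more than any untransformed one. Its log2 fold change was 1.90 ± 0.40 (adjusted p = 0.00327). Without WT p210 replicate 3 it was the 1 of 32 members called, against 31.3% of genes. Abca1 stood at 21.7, 27.8, 13.8 and 13.2 CPM and 73.3, 24.7 and 76.4 CPM, with 1 p210 library inside the untransformed range, and was not called (1.60 ± 0.75, adjusted p = 0.109). It was called higher with only the 2 groups in the fit and without KO p210 replicate 4, alone or together with WT p210 replicate 3.

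In KO cells all members called between p210 and untransformed libraries were lower in p210. They were Ebp, Dhcr7, Acly, Insig1 and Acaca, 5 of 32, where 37.2% of all genes were called and 18.0% were called lower. Of 32 members 2 had a fitted log2 fold change above 0, against 49.4% of all genes, and the median was -0.42, or -0.40 for the sterol enzymes and -0.48 for the fatty acid enzymes, against -0.01 for all genes. At an unadjusted p under 0.05 there were 8 of 32 (46.8% of all genes), so the members leaned to lower values while few passed the test. The codes were not balanced, with 2 first-code and 1 second-code libraries in KO untransformed and 2 of each in KO p210. With code as a term edgeR called 5 of 32 (37.5% of genes), with Scd2 in place of Acaca. The part of the imbalance in the lean was not tested. The groups did not overlap for 11 of 32, against 46.1% of all genes, and all 11 were lower in p210, against 23.5%. Without the library labelled KO p210 replicate 2, edgeR called 7 of 32 (33.2% of genes), the same 5 with Mvk, the mevalonate kinase, and Srebf1.

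Dhcr7 (ENSMUSG00000058454.15, chromosome 7, 143823145 to 143848410, plus strand) encodes the reductase of the last step to cholesterol. It stood at 155, 121 and 114 CPM in KO untransformed and 45.6, 70.0, 77.2 and 41.0 CPM in KO p210 libraries. All 4 p210 libraries were below the untransformed ones, and its log2 fold change was -1.15 ± 0.30 (SE, adjusted p = 0.0104, edgeR). In WT cells Dhcr7 stood at 165, 150.4, 107 and 129 CPM in untransformed and 138, 117 and 56.2 CPM in p210 libraries, which overlapped, with -0.41 ± 0.30 on the log2 scale (adjusted p = 0.302). The interaction, the test of whether these changes differ, gave -0.74 ± 0.42 (adjusted p = 0.446).

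Ebp (ENSMUSG00000031168.14, chromosome X, 8185329 to 8193512, minus strand), the sterol isomerase, varied least among the sterol enzymes. It stood at 57.4, 54.3 and 53.7 CPM in KO untransformed and 48.2, 44.8, 42.7 and 39.7 CPM in KO p210 libraries, without overlap. Its log2 fold change of -0.33 ± 0.07 (adjusted p = 0.00434) was the smallest in size of the called members and had the smallest adjusted p. In WT cells Ebp stood at 53.9, 54.8, 58.1 and 52.7 CPM and 46.5, 51.6 and 47.1 CPM, also without overlap, but was not called at -0.18 ± 0.07 (adjusted p = 0.0669, or 0.109 with the line as a block). It was called lower there by DESeq2, with each other scaling, with a replicate block and with code as a term. The same held without WT p210 replicate 2 or KO p210 replicate 1 or 4. Insig1 stood at 224, 177 and 149.9 CPM in KO untransformed and 58.0, 107, 101 and 44.0 CPM in KO p210 libraries. The groups did not overlap, and the log2 fold change was -1.25 ± 0.40 (adjusted p = 0.0305), a call lost without KO untransformed replicate 1 or 2 or KO p210 replicate 1 or 4.

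Acly stood at 712, 649 and 646 CPM in KO untransformed and 438, 549, 561 and 383 CPM in KO p210 libraries. Every p210 library was lower, and the log2 fold change was -0.47 ± 0.14 (adjusted p = 0.0212), lost without KO untransformed replicate 1 or KO p210 replicate 1. Acaca (ENSMUSG00000020532.18, chromosome 11, 84129672 to 84401651, plus strand) stood at 48.3, 48.3 and 54.3 CPM and 35.1, 43.7, 40.6 and 24.3 CPM. The groups did not overlap, but its call (-0.49 ± 0.18, adjusted p = 0.0489) was kept in 12 of 29 other settings only and was lost on leaving out any 1 of 10 libraries. The desaturases Scd1 and Scd2 had larger fitted changes, -1.29 ± 0.92 and -0.97 ± 0.47, with wide errors, and were not called (adjusted p = 0.295 and 0.123). Abcg1 stood at 57.1, 62.1 and 39.8 CPM in KO untransformed and 113, 91.6, 27.9 and 82.5 CPM in KO p210 libraries. KO p210 replicate 3 lay below the untransformed libraries and the other 3 above them, and the log2 fold change was 0.57 ± 0.41 (adjusted p = 0.293). Abca1 stood at 78.5, 91.5 and 48.7 CPM and 15.8, 23.4, 20.1 and 164 CPM (-0.38 ± 0.74, adjusted p = 0.721, edgeR). It was called lower with first-code libraries only and without KO p210 replicate 4, alone or together with WT p210 replicate 3.

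Within the codes the p210 comparisons kept their direction for the called members. Insig1 gave -1.17 in WT and -1.29 in KO cells on the log2 scale with first-code libraries only, and -1.93 and -1.05 with second-code libraries only. Acly gave -0.55 and -0.47 with the first code and -0.54 and -0.45 with the second. Dhcr7 in KO cells gave -1.25 and -0.95, and Abcg1 in WT cells 1.504 and 2.404 in that order. Called members numbered 3 of 32 in WT cells (26.2% of all genes) and 8 of 32 in KO cells (29.4%) with the first code. With the second code edgeR called 0 of 32 in WT cells (1566 of 15626 genes, 4 members at an unadjusted p under 0.05) and 0 of 32 in KO cells (0.467%, 2 members). The WT p210 and KO untransformed groups then hold 1 library each, which the fit takes to vary like the others.

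**Figure D3:**
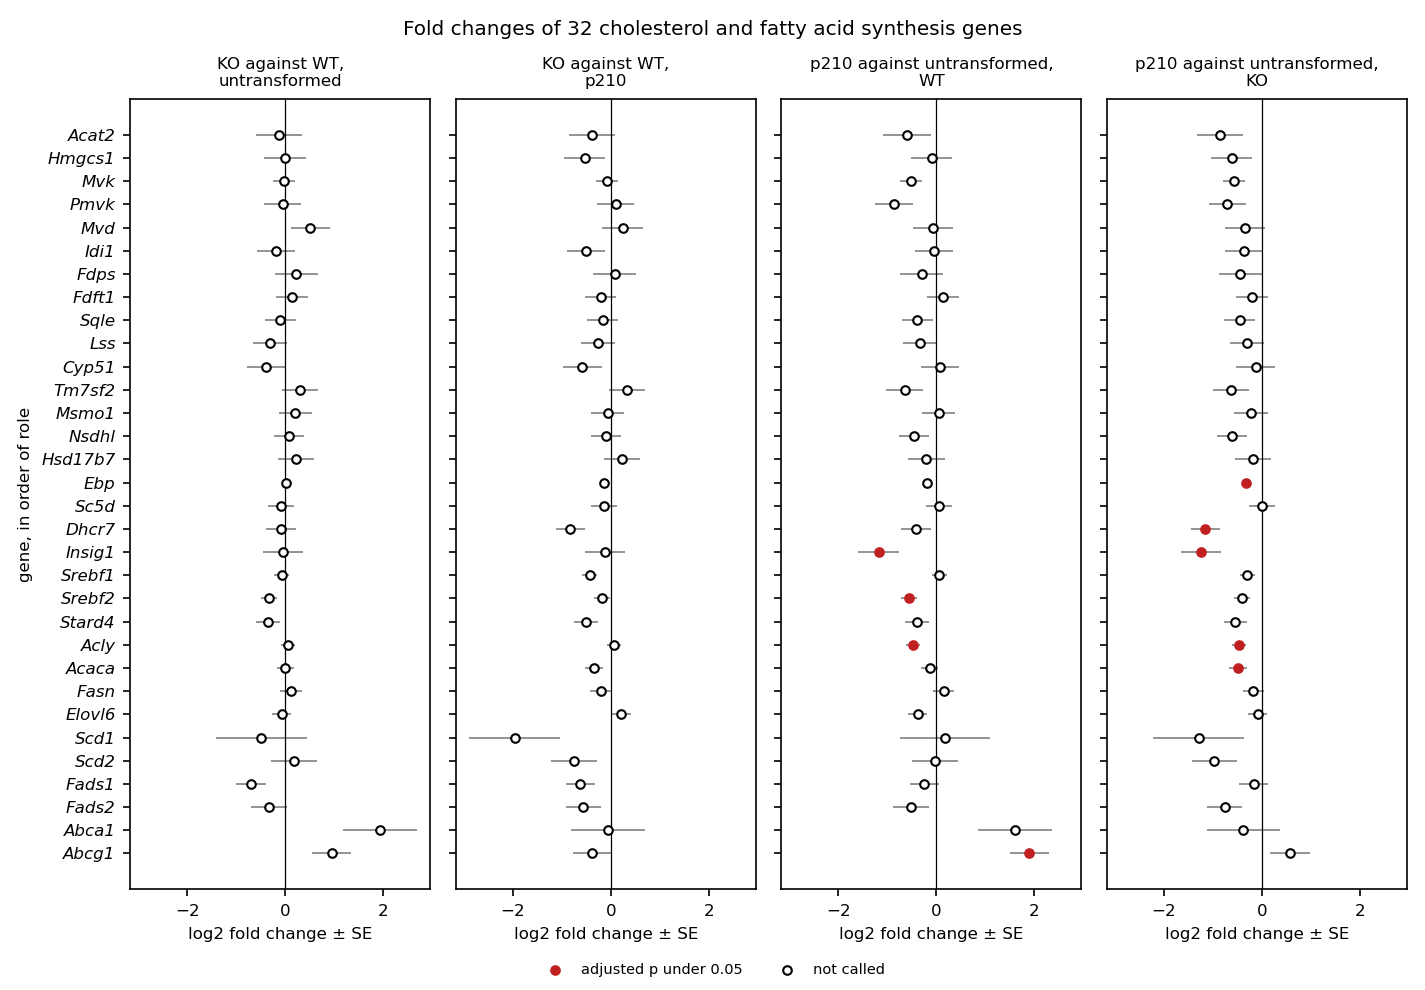
Log2 fold changes with their SE for the 32 genes in order of role, in the 4 comparisons of the groups, from edgeR. Filled red points passed the adjusted threshold of 0.05: Insig1, Srebf2, Acly and Abcg1 in WT cells and Ebp, Dhcr7, Insig1, Acly and Acaca in KO cells, with none in the 2 panels of KO against WT.

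Other measured programmes moved with transformation as well. The summed level of 18 proliferation genes ran from 6270.1 to 6617 CPM in WT untransformed and from 3787 to 4489 CPM in WT p210 libraries. In KO cells it ran from 4273 to 4975 CPM in untransformed and from 3481 to 4014 CPM in p210 libraries. Of the 18 genes, 14 were called lower in WT cells (17.6% of all genes). In KO cells 8 were called lower and 1 higher (18.0% and 19.2%), with 3 of 18 fitted values above 0 (49.4%). The 8 macrophage markers summed to between 65.9 and 227 CPM in WT untransformed and between 249.5 and 928 CPM in WT p210 libraries, the groups between which Abcg1 rose. In KO cells these sums overlapped, from 460.0 to 819.7 CPM in untransformed and from 373 to 868 CPM in p210 libraries, and the median log2 fold change of the 7 tested was -1.22 with 1 of 7 above 0. Progenitor markers called lower in p210 numbered 4 of 8 in WT cells (17.6% of all genes) and 5 of 8 in KO cells (18.0%). Among them was Kit, which fell from 431 ± 51.4 to 45.5 ± 12.2 CPM in WT cells (SD, n = 4 and n = 3). Fitted fold changes were above 0 for 2 of 8 in WT and 1 of 8 in KO cells (51.4% and 49.4% of all genes). The mast cell and basophil markers summed to between 2571 and 2863 CPM in KO untransformed and between 6942 and 10159.5 CPM in KO p210 libraries. There 2 of 7 were called higher and 0 lower (19.2% and 18.0% of all genes), but 3 of 7 lay lower without overlap (23.5%). Cpa3 and Mcpt8 rose from means of 1586 to 6215 CPM and 305 to 2513 CPM, while Fcer1a fell from 737 to 315 CPM. In WT cells the sums of these 7 markers overlapped, from 1213 to 5940.4 CPM in untransformed and from 3916 to 13118 CPM in p210 libraries. Of the 7, 2 were called higher and 2 lower (21.9% and 17.6% of all genes). In bulk RNA, fewer cells of a type and less RNA per cell cannot be told apart, and the part of these programmes in the fold changes was not tested.

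Between KO and WT untransformed libraries edgeR called 0 of 32 members, where 15.2% of all genes were called. At an unadjusted p under 0.05 there were 3 (Abca1, Abcg1 and Fads1), against 32.5% of all genes. DESeq2 called 1 (Abca1) and limma-voom 0, against 24.1% and 19.7% of all genes. The median log2 fold change was -0.03, against -0.02 for all genes, and the sterol enzymes ran from -0.38 to 0.51. The groups did not overlap for 5 of 32 members, against 39.7% of all genes. Abca1 and Abcg1 were higher in KO (20.8% of all genes were) and Fads1, Srebf2 and Stard4 lower (18.9%).

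Abca1 (ENSMUSG00000015243.4, chromosome 4, 53030787 to 53159895, minus strand) stood at 21.7, 27.8, 13.8 and 13.2 CPM in WT and 78.5, 91.5 and 48.7 CPM in KO untransformed libraries. Its log2 fold change was 1.93 ± 0.75 (SE, adjusted p = 0.1, edgeR). Abcg1 stood at 34.0, 35.0, 16.8 and 24.0 CPM in WT and 57.1, 62.1 and 39.8 CPM in KO libraries, with 0.95 ± 0.40 (adjusted p = 0.123). Every KO library had more of both exporters than any WT library. Fads1, the delta-5 desaturase, stood at 238, 325, 274 and 292 CPM in WT and 199, 174 and 151 CPM in KO libraries (-0.69 ± 0.31, adjusted p = 0.139). Srebf2 gave -0.33 ± 0.16 and Stard4, a cytosolic carrier of cholesterol, -0.36 ± 0.25 on the log2 scale (adjusted p = 0.187 and 0.339). With only the 2 groups in the fit, edgeR called Abca1 higher and Fads1, Srebf2 and Stard4 lower, 4 of 32 against 24.4% of genes. Abca1 was also called without KO p210 replicate 4 and Abcg1 without KO p210 replicate 3, libraries that enter this comparison through the shared estimate of spread.

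Besides the exporters, several measured programmes differed in this comparison, and macrophage, neutrophil and monocyte markers were among those higher in KO. The 8 macrophage markers summed to between 65.9 and 227 CPM in WT and between 460.0 and 819.7 CPM in KO untransformed libraries. All 7 that were tested had fitted fold changes above 0 (48.3% of all genes did), and 2 of 7 were called (15.2% of all genes). Of the 11 neutrophil and monocyte markers, 10 were tested and 10 had fitted values above 0, with 2 called, and their sums ran from 309.8 to 10166 CPM in WT and from 22808 to 31681 CPM in KO libraries. Marco and Ly6g had no counts in KO untransformed libraries. Other lists were lower in KO. Of 18 proliferation genes 14 were called lower, and of 5 megakaryocyte markers 4, against 6.50% of all genes. The part of any of these programmes in the levels of Abca1 and Abcg1 was not tested.

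Between KO and WT p210 libraries edgeR also called 0 of 32 members, where 4.44% of all genes were called. At an unadjusted p under 0.05 there were 2 (Srebf1 and Dhcr7), against 19.9% of all genes, and DESeq2 and limma-voom called 0 (1454 and 411 of the 14512 genes). No member separated the groups (13.3% of all genes did). Fitted fold changes were above 0 for 7 of 32 members, against 49.7% of all genes, with a median of -0.19 against 0.00. WT p210 holds 2 first-code and 1 second-code libraries and KO p210 2 of each, and the part of this imbalance was not tested. With code as a term edgeR again called 0 of 32 (4.8% of genes). Srebf1 stood at 236, 241 and 182 CPM in WT and 172, 202, 155 and 123 CPM in KO p210 libraries (-0.43 ± 0.15, adjusted p = 0.135). The ranges overlapped, as they did for Dhcr7 (-0.83 ± 0.30, adjusted p = 0.143), whose lowest WT library was replicate 3. Without WT p210 replicate 3 Dhcr7 and Stard4 were called lower in KO, 2 of 32 against 4.88% of genes. Without the library labelled KO p210 replicate 2, edgeR called 0 of 32 (2.10% of genes), with 5 at an unadjusted p under 0.05 (17.3%). Scd1 had the largest fitted difference, -1.95 ± 0.93 (adjusted p = 0.269).

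The interaction of genotype and transformation called 0 of 32 members in edgeR, where 0.0345% of all genes were called, and 1 (Abcg1) had an unadjusted p under 0.05 (14.1% of all genes). DESeq2 called 0 (2.85% of all genes), with 2 at an unadjusted p under 0.05 (16.3%). For Abcg1 the interaction was -1.33 ± 0.56 on the log2 scale (SE, adjusted p = 0.33). For Abca1 it was -1.98 ± 1.05 (adjusted p = 0.418), with 15.8, 23.4, 20.1 and 164 CPM in KO p210 libraries. The last of these libraries stood far above the other 3, and without it Abca1 was called lower in the interaction, 1 of 32 members against 0.296% of genes.

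**Figure D4:**
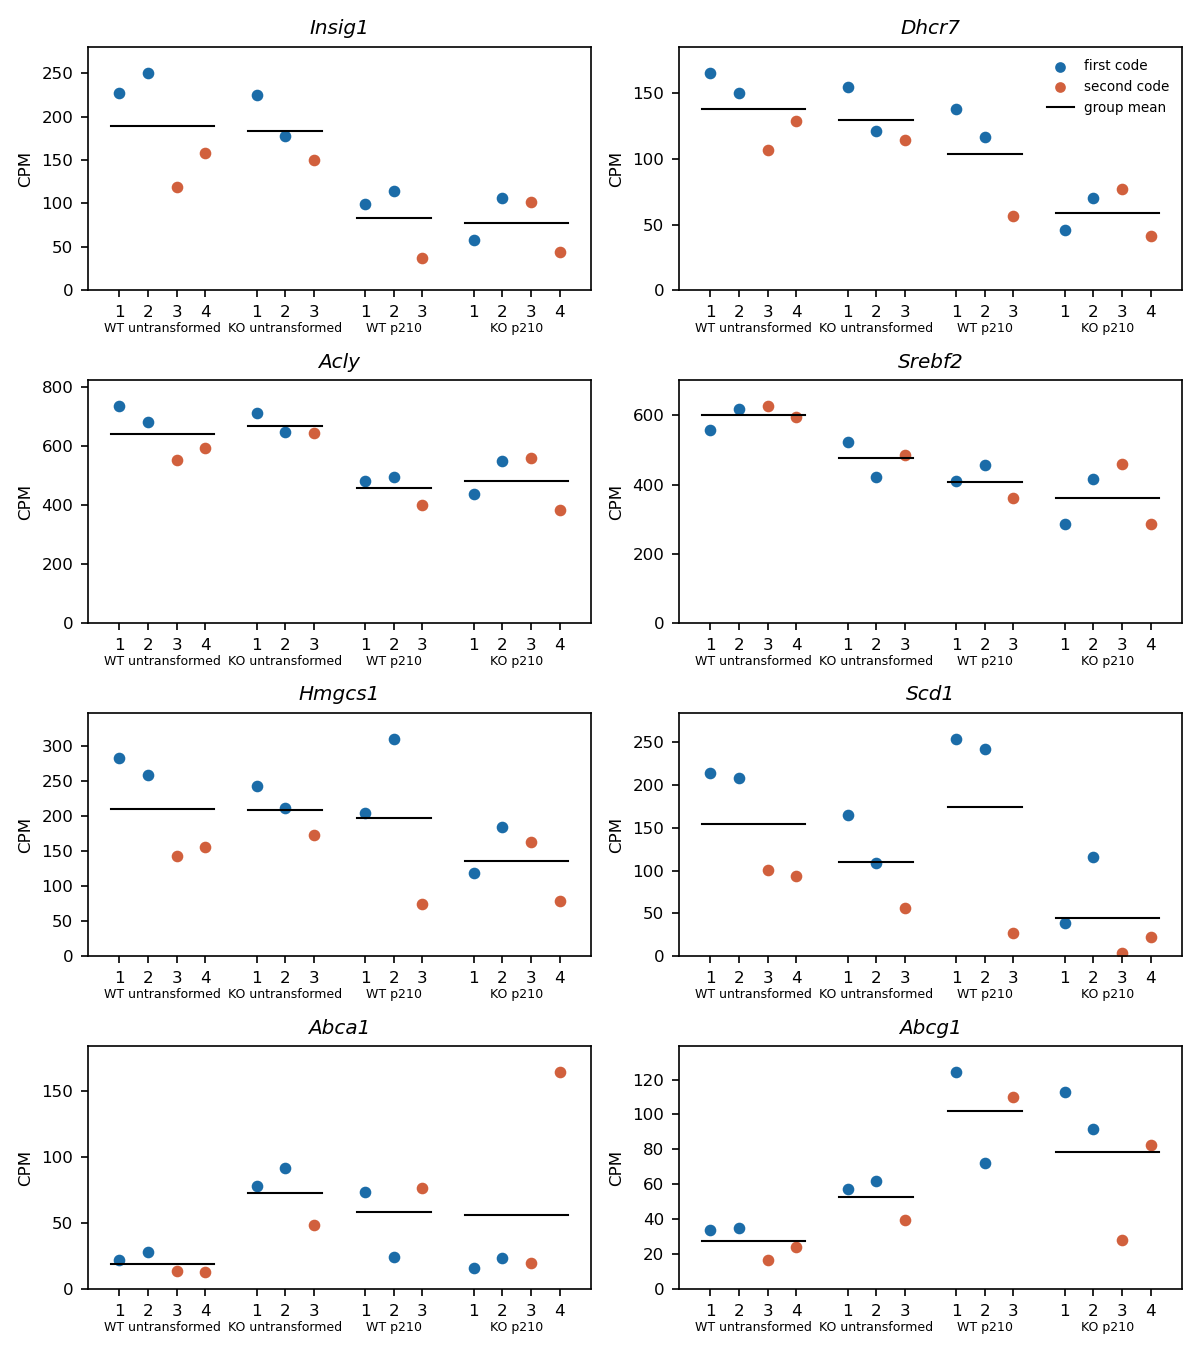
CPM of 8 members in each of the 14 libraries, with replicate numbers on the x axis of each group, black lines for group means and colours for the code. Insig1 and Acly lie lower in p210 than in untransformed libraries of the same genotype, Hmgcs1 and Scd1 are low in WT p210 replicate 3, and Abca1 has its highest value in KO p210 replicate 4.

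Other genes of the same pathways, from a list with 20 on the sterol side and 28 on the fatty acid side, were tested in 18 and 26 cases. In WT cells p210 libraries had 6 of 18 sterol side genes higher and 0 lower, and 6 of 26 fatty acid side genes higher and 2 lower, where 21.9% of all genes were called higher and 17.6% lower. The smallest adjusted p went to Insig2, the second SREBP retention protein (0.74 ± 0.09 on the log2 scale, adjusted p = 9.67e-05), Hacd3, a dehydratase of fatty acid elongation (1.24 ± 0.16, adjusted p = 0.000137), and the lipid transporter Abca7 (1.07 ± 0.16, adjusted p = 0.000344). Insig2 was thus higher where Insig1 was lower. In KO cells 5 of 18 were higher and 0 lower on the sterol side, and 3 of 26 higher and 2 lower on the fatty acid side, against 19.2% and 18.0% of all genes. They were led by Acacb, the mitochondrial acetyl-CoA carboxylase (-3.74 ± 0.45, adjusted p = 0.000121), Hacd3 (1.05 ± 0.16, adjusted p = 0.000561) and the LXR gene Nr1h2 (0.57 ± 0.09, adjusted p = 0.000561).

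Between KO and WT untransformed libraries, 6 of 18 sterol side genes were higher and 1 lower, and 3 of 26 fatty acid side genes were higher and 1 lower, where 8.73% of all genes were called higher and 6.50% lower. The leading ones were Npc2, which carries cholesterol out of the lysosome (0.93 ± 0.18, adjusted p = 0.00934), Gpam, the first acyltransferase of triglyceride synthesis (-0.65 ± 0.15, adjusted p = 0.0151), and Scap, the SREBP escort protein (-0.34 ± 0.08, adjusted p = 0.0176). Between KO and WT p210 libraries no gene of either side was called higher and 3 were called lower, against 0.882% and 3.56% of all genes: Scap (-0.37 ± 0.08, adjusted p = 0.0206), Acacb (-1.95 ± 0.45, adjusted p = 0.0306) and Gpam (-0.59 ± 0.14, adjusted p = 0.0382). Scap and Gpam were thus lower in KO in both states, while no member of the 32 was called between genotypes in either.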

How the data were processed

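The 14 libraries were single-end (SENSE mRNA-Seq kit), per the labels' protocols. The authors trimmed with Trimmomatic and aligned with STAR to GRCm38, per the submitters' processing notes. For both, the version was not given in the sources used here. Reads were counted by the authors on the reverse strand of GENCODE M13 genes with featureCounts 1.5.1, per the file headers, and the raw counts were deposited. TPM values, also deposited, were recomputed from counts and lengths within 0.05. Reads of near-identical copies may be split by such counting, which was not tested. For 6 libraries 2 runs were merged, per the labels.

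The tests used edgeR 4.0.16 in R 4.3.3, with TMM scaling and a robust quasi-likelihood fit of all 14 libraries by group. The filter (filterByExpr, minimum count 10, minimum total 15) kept 14512 genes, over which p-values were adjusted by Benjamini-Hochberg. Called means an adjusted p under 0.05, from edgeR where no tool is named. Fold changes are log2 with SE. Alternatives used DESeq2 1.42.0, limma-voom (limma 3.58.1), other scalings, filters, blocks, codes and omitted libraries. Scripts were tested on simulated data. Members, lists and tests were chosen with earlier results of these data known. Genes are described in full where called, up to 6 per comparison, and up to 3 of the other pathway genes. The code comparison and the omission of both WT p210 replicate 3 and KO p210 replicate 4 were chosen after library values were seen. Pairing was checked by correlating same-numbered libraries' deviations from their group means. The 3 pairs of WT untransformed and WT p210 libraries also share code and letter in the descriptions. They gave 0.126, 0.101 and 0.119, each over 0.1. The 3 pairs of KO libraries that share code and letter gave 0.0773, 0.109 and -0.0559. No pairing entered the main fit, and the block by line, an alternative only, covered both genotypes. Over all 19 same-numbered pairs the range was -0.19 to 0.15. The highest value, 0.152, was between WT and KO untransformed replicates 3, which share no line, so these correlations do not establish pairs.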

Additional observations from a re-analysis of the deposited data

Results flagged for a closer look

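Abca1 in KO p210 replicate 4 stood at 164 CPM, against 15.8, 23.4 and 20.1 CPM in the other 3 libraries of its group. The gap to the nearest library, divided by the range of the group, was above Dixon's critical value. This was the 1 value found in 64 groups of 4 libraries tested, where about 1 in 20 groups is marked by chance. The same library had the highest summed level of neutrophil and monocyte markers in its group (21809 CPM). Its sum of stromal and adipocyte markers was also the highest (43.6 CPM, against 0.523 to 2.91 CPM in the others). Of that sum 42.1 CPM came from Fabp4 alone, while Adipoq and Plin1 reached no more than 0.234 and 0.039 CPM in the group. The part of these markers in the level of Abca1 was not tested.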

How the results depend on the processing

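Counts of members called moved by more than 1.5 times in these settings. For KO against WT in untransformed cells, where edgeR called 0, DESeq2 called 1 and a fit of the 2 groups alone called 4. For p210 against untransformed, second-code libraries alone gave 0 in WT cells (4 with all libraries) and 0 in KO cells (5), first-code libraries alone gave 8 in KO cells, and no filter on low counts gave 3 in KO cells. For the code comparison DESeq2 called 9 against 0. Leaving out 1 library at a time, or the 2 that stood apart, gave 0 to 2 called members for KO against WT in either state. It gave 1 to 7 for p210 in WT cells (1 without WT p210 replicate 3, 7 without WT p210 replicate 2 or KO p210 replicate 4) and 2 to 7 in KO cells (2 without KO untransformed replicate 1 or KO p210 replicate 1). For the interaction it gave 0 to 1, and for the code comparison 0. All 9 called fold changes kept their direction in all 29 settings each.

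With a replicate block, 6 members were called for p210 in WT and 4 in KO cells, and with a block by the presumed line 4 and 6. In WT cells the first added Ebp and Pmvk, and the second added Pmvk and lost Srebf2. In KO cells both lost Acaca, and the second added Acat2 and Tm7sf2. No other call of a member changed under a block. The block left the counts of KO against WT, in either state, and of the interaction at 0. The block by line could not be fitted for KO against WT, because lines lie within a genotype. With code as a term 6 members were called for p210 in WT cells, adding Ebp and Pmvk. In KO cells that fit called 5, adding Scd2 and losing Acaca. Scaling to library size alone moved the median log2 fold change of all genes to -0.12 for KO against WT in untransformed cells and turned the split of calls from 1267 higher and 944 lower to 915 and 1657. For p210 it turned 3173 and 2554 to 2516 and 3471 in WT cells and 2790 and 2605 to 2093 and 3466 in KO cells, with 6 and 7 members called. Depth did not keep any member from being tested.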
